A study of Mus musculus with 24 samples.

Results

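Astrocyte transport and identity genes were followed across 24 hippocampal arrays. The group holds 10 genes: the glutamate transporters Slc1a2 and Slc1a3, the glutamine synthetase Glul, the potassium channel Kcnj10, the water channel Aqp4, the bicarbonate transporter Slc4a4, the gap junction protein Gja1, the transcription factor Sox9, and the enzymes Aldh1l1 and Aldoc. They were chosen by name, as the non-control probes whose RefSeq transcript belongs to one of these symbols. That gave 10 of the 18566 genes with a symbol that were tested, and 18 of the 56605 probes on the array. Of the genes, 4 had 1 probe, 4 had 2 and 2 had 3.

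RNA was taken from the hippocampus of male mice, with 1 Agilent one-colour array per animal, and B6.Cg-Tg(APPswe,PSEN1dE9)85Dbo/J is the background named for every group. APP-PS1_UA (n = 4) carried the APP and PSEN transgenes and received urolithin A, APP-PS1_CTR (n = 3) carried them and received water, and WT_CTR (n = 4) carried neither and received water. APP-PS1_UA-WASHOUT (n = 5), APP-PS1_WASHOUT (n = 3) and WT_WASHOUT (n = 5) are the same 3 kinds of animal, kept for 1 further month without gavage. Gavage ran from 2 to 7 months of age, and no group of non-transgenic animals received urolithin A. The labels give an age of 8 months, and of 9 months for the washout groups, whereas the design text places collection at the end of gavage and 1 month later. The dose is 200 mg/kg/day in one label and 20 mg/kg/day in the design text, and no source used here names the promoter that drives the transgenes.

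Astrocytes clear glutamate from synapses, turn it into glutamine, buffer potassium, and wrap blood vessels with endfeet rich in water channels. They are joined to each other by gap junctions. In mouse models of amyloid deposition astrocytes near plaques become reactive, with more of the filament protein Gfap. Urolithin A is a gut bacterial metabolite of ellagitannins, known as an inducer of mitophagy. In bulk hippocampal RNA, fewer astrocytes and less RNA per astrocyte cannot be told apart.

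Levels are given as the log2 of the processed signal minus the array's 75th percentile over probes, so that 0 is the level of that percentile. All 18 probes were well above background on 24 of 24 arrays, as were probes of all 31 other astrocyte identity genes listed and of all 8 hippocampal subfield markers listed. A gene was represented by its brightest probe, and no probe's level was set against another's. A gene was called at a limma adjusted p under 0.05 over all 35259 features tested. The 24 arrays lay on 3 slides of 8. Slide 1 held APP-PS1_UA replicate 1, APP-PS1_CTR and WT_CTR, slide 2 the other APP-PS1_UA arrays and WT_WASHOUT, and slide 3 APP-PS1_UA-WASHOUT and APP-PS1_WASHOUT. The first principal component, with 47.1% of the variance, set slide 3 apart. Comparisons of transgenic washout groups with WT_WASHOUT therefore cannot be told apart from the slide. Arrays of 1 group correlated across features at 0.977 to 0.991. P-values measure the spread between animals.

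The promoters of Slc1a2, Slc4a4 and Kcnj10 are shown for 2 reasons. The first pair varied together most closely among these genes. Kcnj10 and Slc4a4 were called lower in APP-PS1_UA-WASHOUT than in WT_WASHOUT, a comparison across slides. Neither was called against APP-PS1_WASHOUT on the same slide. RefSeq promoters, each 250 bases before to 50 after a gene start in GRCm38.p6, were kept for 8 of the 10 genes. Aqp4 and Sox9 had no promoter kept. A chromosome had been left out by hand for these 10 genes before that count, but not for the shares over all promoters. Capitals mark matches on either strand to 6 short motifs. The GC box was searched as GGGCGG, and the TATA box as TATAAA. The letters CCAAT stood for the CCAAT box. A SOX core was searched as ACAAAG, and an NFI site as TTGGCA. The STAT motif was searched as TTCNNNGAA, and matches of different motifs may overlap.
Slc1a2 promoter: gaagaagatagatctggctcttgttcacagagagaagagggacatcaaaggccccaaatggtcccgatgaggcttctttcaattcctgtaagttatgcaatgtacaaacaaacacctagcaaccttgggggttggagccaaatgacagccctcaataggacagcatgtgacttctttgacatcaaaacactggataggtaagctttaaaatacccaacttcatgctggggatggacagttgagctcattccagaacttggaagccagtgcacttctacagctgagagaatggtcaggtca
Slc4a4 promoter at the first start: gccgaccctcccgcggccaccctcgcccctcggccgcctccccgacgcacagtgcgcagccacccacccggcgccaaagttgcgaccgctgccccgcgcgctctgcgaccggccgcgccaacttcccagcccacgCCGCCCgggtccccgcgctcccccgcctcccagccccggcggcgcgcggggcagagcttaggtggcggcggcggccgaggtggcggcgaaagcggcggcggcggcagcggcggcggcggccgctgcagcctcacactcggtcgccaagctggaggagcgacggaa
Slc4a4 promoter at the second start: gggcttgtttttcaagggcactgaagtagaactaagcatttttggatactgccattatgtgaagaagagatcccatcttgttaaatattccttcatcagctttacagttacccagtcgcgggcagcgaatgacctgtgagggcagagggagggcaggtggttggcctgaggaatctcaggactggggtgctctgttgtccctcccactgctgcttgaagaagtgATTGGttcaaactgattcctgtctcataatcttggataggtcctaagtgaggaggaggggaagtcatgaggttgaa
Kcnj10 promoter: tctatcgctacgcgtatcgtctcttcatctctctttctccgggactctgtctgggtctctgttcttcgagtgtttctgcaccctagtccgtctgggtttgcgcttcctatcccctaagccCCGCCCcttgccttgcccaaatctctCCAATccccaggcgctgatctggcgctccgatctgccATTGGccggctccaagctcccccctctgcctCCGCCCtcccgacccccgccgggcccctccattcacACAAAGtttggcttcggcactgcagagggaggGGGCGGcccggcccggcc

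The Slc1a2 promoter, chr2:102706188-102706487 on the plus strand, held none of the 6 motifs, and 45.7% of its bases were G or C. The promoter at the first Slc4a4 start, chr5:88887010-88887309 on the plus strand, held 1 GC box and was 80.0% G or C. The promoter at the second Slc4a4 start, chr5:89027716-89028015 on the plus strand, held 1 CCAAT box and was 48.3% G or C. The Kcnj10 promoter, chr1:172340960-172341259 on the plus strand, held 3 GC boxes, 2 CCAAT boxes and 1 SOX core. Over all 32851 promoters of the table the median G or C share was 52.7%. A GC box occurred in 35.7% of them, a CCAAT box in 37.4%, a SOX core in 18.7%, a TATA box in 13.6%, an NFI site in 14.1% and a STAT site in 8.30%. No motif was shared by Slc1a2 and Slc4a4 in these windows, and a match is a description only.

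At the end of treatment none of the 10 genes was called in any comparison. Between APP-PS1_CTR and WT_CTR, which asks what the transgenes change, 0 of 10 were called, against 60 of all features (0.17%), and 2 of the 10 had an unadjusted p under 0.05, as did 6.47% of all features. Their median change was -0.03, against 0.00 over all features, and single changes ran from -0.30 to 0.37. Between APP-PS1_UA and APP-PS1_CTR, which asks what the treatment changes, 0 of 10 were called by limma, against 0 features (0.0%), with 2 of the 10 and 2623 of all features (7.44%) at an unadjusted p under 0.05. The median change of the 10 genes was 0.10, against -0.01 over all features. Between APP-PS1_UA and WT_CTR 0 of 10 were called, against 22 features (0.0624%), and 1 had an unadjusted p under 0.05, as did 6.19% of all features. These 3 comparisons share groups, so their values are not independent.

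**Figure D1:**
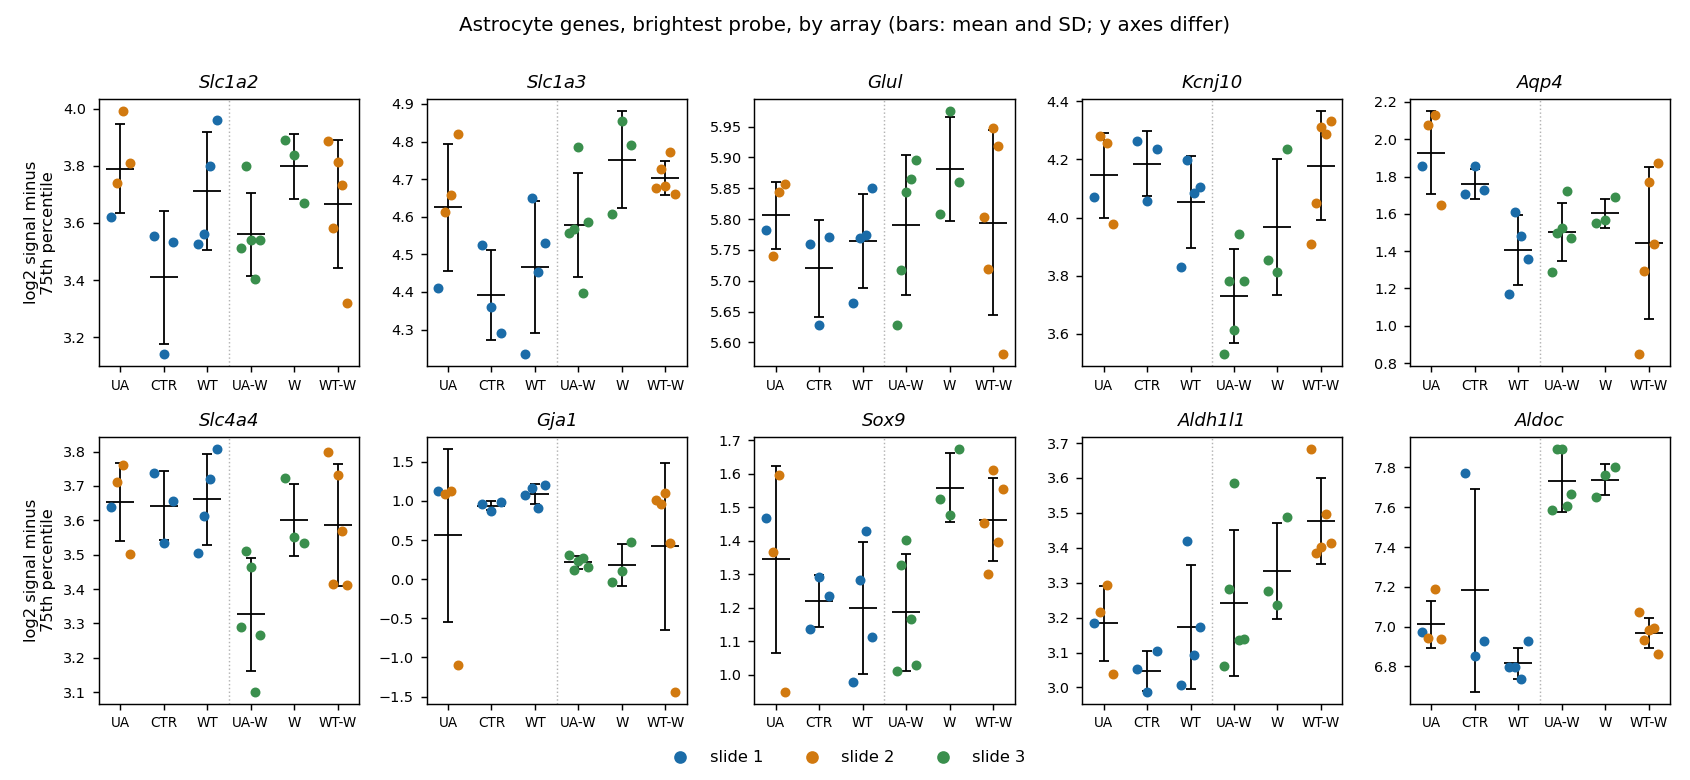
Level of each gene by array, as log2 signal minus the array's 75th percentile, with colours for the 3 slides and bars for the group mean and SD. UA, CTR and WT are the groups at the end of treatment, and UA-W, W and WT-W the washout groups. Aldoc sits between 7.59 and 7.89 on slide 3, above the 5 WT-W arrays, and Gja1 is low on 1 UA array and 1 WT-W array.

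Slc1a2, which encodes the main glial glutamate transporter GLT-1, stood at 3.62, 3.74, 3.99 and 3.81 in APP-PS1_UA, at 3.55, 3.14 and 3.53 in APP-PS1_CTR, and at 3.53, 3.56, 3.80 and 3.96 in WT_CTR. All 4 treated arrays lay above all 3 APP-PS1_CTR arrays, while treated and WT_CTR arrays overlapped. The change between APP-PS1_UA and APP-PS1_CTR was 0.38 (95% interval 0.08 to 0.68, limma adjusted p = 0.637), so it did not pass the test. It was 0.21 with slide as a fixed block, a value that rests on the only treated array of slide 1. APP-PS1_CTR minus WT_CTR was -0.30 (adjusted p = 0.771).

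After washout Slc1a2 was at 3.51, 3.80, 3.54, 3.41 and 3.54 in APP-PS1_UA-WASHOUT, at 3.89, 3.84 and 3.67 in APP-PS1_WASHOUT, and at 3.89, 3.58, 3.81, 3.73 and 3.32 in WT_WASHOUT. The groups overlapped, and APP-PS1_UA-WASHOUT minus APP-PS1_WASHOUT was -0.24 (limma adjusted p = 0.723), and -0.12 with array row as a block. The difference between the treatment change after washout and that at the end of treatment was -0.62 (95% interval -1.04 to -0.20, adjusted p = 0.336).

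Slc1a3, which encodes the glial glutamate transporter GLAST, stood at 4.41, 4.61, 4.66 and 4.82 in APP-PS1_UA, at 4.52, 4.36 and 4.29 in APP-PS1_CTR, and at 4.23, 4.65, 4.45 and 4.53 in WT_CTR. Its change between APP-PS1_UA and APP-PS1_CTR was 0.23 (limma adjusted p = 0.670), and 0.02 with slide as a fixed block. The 1 treated array on slide 1 lay within the range of the APP-PS1_CTR arrays, and the 3 on slide 2 lay above them. In the washout groups it ran from 4.40 to 4.79 in APP-PS1_UA-WASHOUT, from 4.61 to 4.85 in APP-PS1_WASHOUT and from 4.66 to 4.77 in WT_WASHOUT. The 5 WT_WASHOUT arrays, all on slide 2, lay above the 4 WT_CTR arrays on slide 1, with a change of 0.24 (adjusted p = 0.548), which was -0.05 with slide as a fixed block. Only APP-PS1_UA lay on both of these slides, so both blocked values rest on its 1 array on slide 1.

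Glul, which makes glutamine from glutamate and ammonia, was represented by its brightest probe. That probe had the smallest spread within groups among the 18 probes (SD 0.10), and the other 2 Glul probes had SDs of 0.22 and 0.14. On the brightest probe the 24 arrays lay between 5.58 and 5.97. The treated minus APP-PS1_CTR change was 0.09 (95% interval -0.11 to 0.28), and after washout it was -0.09 (95% interval -0.28 to 0.09), with limma adjusted p = 0.831 and 0.861. The other 2 Glul probes were not called in these comparisons either. Of 12 listed partners in glutamate and glutamine handling, 0 were called at the end of treatment, and 1, the neutral amino acid transporter Slc38a1, was lower in APP-PS1_UA-WASHOUT than in WT_WASHOUT (-0.31, adjusted p = 0.016), a comparison across slides in which 36.3% of all features were called.

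Kcnj10, which encodes the potassium channel Kir4.1, stood at 4.07, 4.28, 4.26 and 3.98 in APP-PS1_UA, at 4.26, 4.06 and 4.24 in APP-PS1_CTR, and at 3.83, 4.20, 4.08 and 4.11 in WT_CTR. These groups overlapped, and the 3 changes ran from -0.04 to 0.13. After washout it stood at 3.53, 3.78, 3.61, 3.94 and 3.78 in APP-PS1_UA-WASHOUT, at 3.85, 3.81 and 4.24 in APP-PS1_WASHOUT, and at 3.91, 4.05, 4.31, 4.29 and 4.33 in WT_WASHOUT. All 5 treated washout arrays lay below the WT_WASHOUT mean, although 1 of them overlapped the lowest WT_WASHOUT array.

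Kcnj10 was lower in APP-PS1_UA-WASHOUT than in WT_WASHOUT by 1.36-fold, at 3.73 ± 0.16 and 4.18 ± 0.19 (SD, n = 5 each). The log2 change was -0.45 (95% interval -0.68 to -0.22, limma adjusted p = 0.00323). The call held in 34 of 35 alternatives, with the exception of the deposited scores. Against APP-PS1_WASHOUT, on the same slide, the change was -0.24 (adjusted p = 0.693), and -0.37 (adjusted p = 0.370) with array row as a block. On slide 3 the 3 APP-PS1_WASHOUT arrays and replicate 1 of APP-PS1_UA-WASHOUT lay in row 1, with 73.8% to 76.9% of spots well above background, and the other 4 treated arrays in row 2, with 63.7% to 69.9%. The part of detection in the values was not tested. The mean over slide 3 was 3.82, against 4.11 on slide 1 and 4.18 on slide 2, so the change against WT_WASHOUT cannot be told apart from the slide.

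Aqp4, the water channel of astrocyte endfeet, stood at 1.86, 2.08, 2.13 and 1.65 in APP-PS1_UA, at 1.70, 1.85 and 1.73 in APP-PS1_CTR, and at 1.17, 1.61, 1.48 and 1.36 in WT_CTR. All transgenic arrays lay above all WT_CTR arrays. APP-PS1_UA minus WT_CTR was 0.52 (95% interval 0.17 to 0.87, unadjusted p = 0.0057, limma adjusted p = 0.706), and APP-PS1_CTR minus WT_CTR was 0.36 (adjusted p = 0.776). Neither passed the test over all features, and with array row as a block the second was 0.04. On slide 1 WT_CTR filled row 1 and APP-PS1_CTR lay in row 2.

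The second Aqp4 probe gave 0.17 for APP-PS1_UA minus WT_CTR and 0.16 for APP-PS1_CTR minus WT_CTR, with overlapping arrays. After washout the brighter probe stood at 1.29, 1.50, 1.52, 1.72 and 1.47 in APP-PS1_UA-WASHOUT, at 1.55, 1.56 and 1.69 in APP-PS1_WASHOUT, and at 0.85, 1.30, 1.77, 1.44 and 1.87 in WT_WASHOUT. WT_WASHOUT spanned the other 2 groups. Of 10 listed genes of the endfoot complex, 0 were called at the end of treatment. In APP-PS1_UA-WASHOUT against WT_WASHOUT 2 were lower, the adhesion protein Hepacam (-0.57, limma adjusted p = 0.000274) and the dystrophin gene Dmd (-0.40, adjusted p = 0.00201), a smaller share than the 36.3% of all features called across these slides.

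Slc4a4, the sodium bicarbonate cotransporter, stood between 3.50 and 3.76 in APP-PS1_UA, between 3.54 and 3.74 in APP-PS1_CTR and between 3.50 and 3.81 in WT_CTR. Its 3 changes at the end of treatment ran from -0.02 to 0.01. After washout it stood at 3.29, 3.51, 3.46, 3.10 and 3.27 in APP-PS1_UA-WASHOUT, at 3.72, 3.55 and 3.53 in APP-PS1_WASHOUT, and at 3.80, 3.41, 3.73, 3.57 and 3.41 in WT_WASHOUT. All 5 treated arrays lay below all 3 APP-PS1_WASHOUT arrays on the same slide, and they overlapped WT_WASHOUT.

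Slc4a4 was lower in APP-PS1_UA-WASHOUT than in WT_WASHOUT at -0.26 (95% interval -0.46 to -0.06, limma adjusted p = 0.0421). That call lies close to the threshold. It held in 24 of 35 alternatives and was lost, with adjusted p = 0.0573, when the 75th percentile was taken over all spots rather than over probes. It was also lost without any 1 of replicates 1, 4 and 5 of APP-PS1_UA-WASHOUT, replicates 1, 3 and 4 of WT_WASHOUT or replicate 3 of APP-PS1_CTR, with adjusted p up to 0.122. The comparison with APP-PS1_WASHOUT gave -0.28 (adjusted p = 0.551) and did not pass. The second Slc4a4 probe gave -0.24 against WT_WASHOUT and -0.27 against APP-PS1_WASHOUT and was not called in either.

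Gja1, which encodes the main connexin of astrocyte gap junctions, had 3 probes that disagreed. Its brightest probe stood at 1.13, 1.09, 1.12 and -1.10 in APP-PS1_UA, at 0.96, 0.88 and 0.98 in APP-PS1_CTR, and at 1.08, 1.17, 0.91 and 1.20 in WT_CTR. On the washout arrays it stood at 0.31, 0.11, 0.23, 0.28 and 0.16 in APP-PS1_UA-WASHOUT, at -0.04, 0.10 and 0.47 in APP-PS1_WASHOUT, and at 1.01, 0.95, 1.11, 0.47 and -1.44 in WT_WASHOUT. The low arrays were replicate 4 of APP-PS1_UA and replicate 5 of WT_WASHOUT, and neither stood apart on the other 2 probes. The SD within groups was 0.69, and 0.10 to 0.35 for the other 17 probes.

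With that spread, the brightest Gja1 probe gave -0.38 for APP-PS1_UA minus APP-PS1_CTR (95% interval -1.42 to 0.66) and no call. The dimmer probe A_55_P2800487 stood at -0.81, -0.78, -0.57 and -0.80 in APP-PS1_UA, at -1.07, -1.43 and -1.02 in APP-PS1_CTR, and at -0.75, -0.92, -0.59 and -0.55 in WT_CTR. All treated and all WT_CTR arrays lay above all APP-PS1_CTR arrays on this probe. In the fit over all 43973 probes the treated minus APP-PS1_CTR change was 0.44 (limma adjusted p = 0.539). It was -0.47 after washout (adjusted p = 0.275), and neither passed the test. The third probe, A_55_P2741907, gave 0.43 (adjusted p = 0.561) and -0.15 (adjusted p = 0.854). Both dimmer probes were lower in APP-PS1_UA-WASHOUT than in WT_WASHOUT, at -0.33 (adjusted p = 0.0406) and -0.38 (adjusted p = 0.0346), while the brightest gave -0.20 (adjusted p = 0.741 over all features). With single arrays left out the brightest ran from -0.67 to -0.03 and was not called. That comparison lies across slides, and 35.5% of all probes were called in it. The brightest probe averaged 1.04 on slide 1, 0.40 on slide 2 and 0.20 on slide 3.

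**Figure D2:**
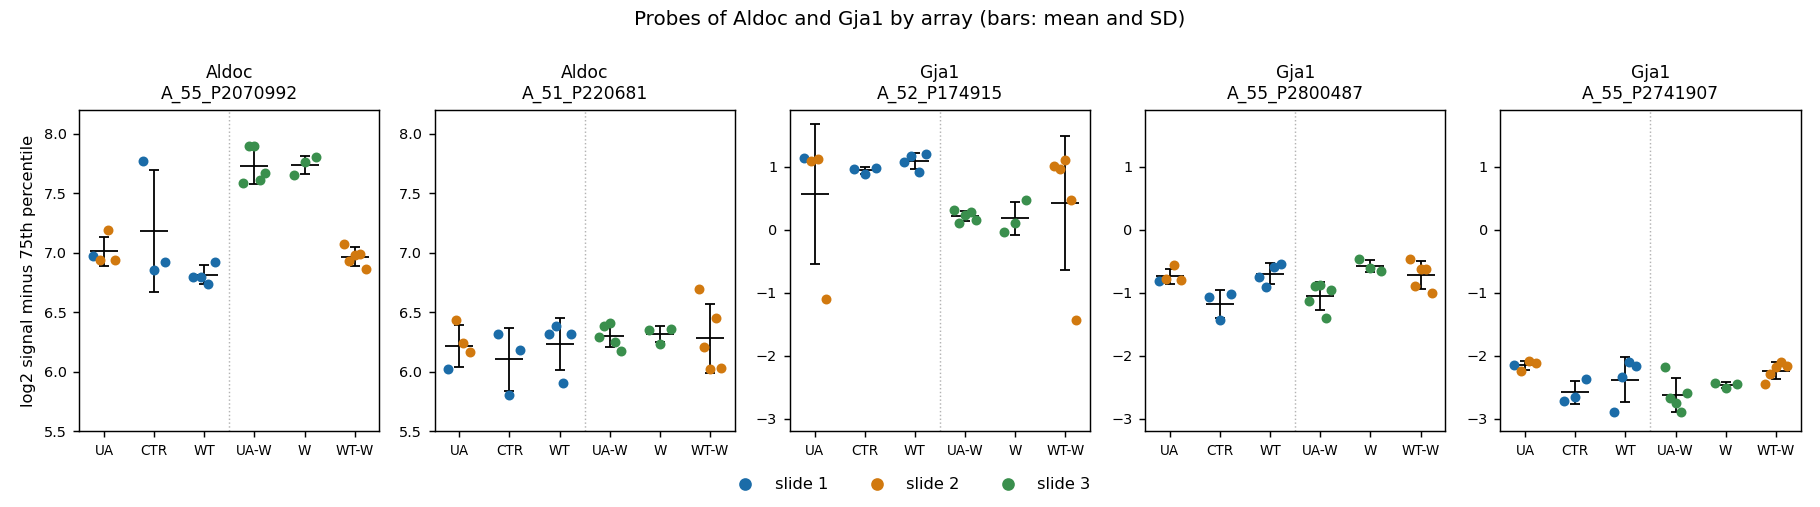
Level of each probe of Aldoc and Gja1 by array, as log2 signal minus the array's 75th percentile, with colours for slides and bars for group mean and SD. The brighter Aldoc probe is high on slide 3 and on 1 CTR array while the other Aldoc probe is not, and the 2 low arrays of the first Gja1 probe do not recur on its other probes.

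Sox9, a transcription factor that marks astrocytes in the adult brain, overlapped between groups at the end of treatment, with 1.47, 1.37, 1.59 and 0.95 in APP-PS1_UA, 1.14, 1.29 and 1.23 in APP-PS1_CTR, and 0.98, 1.28, 1.43 and 1.11 in WT_CTR. After washout it stood at 1.01, 1.33, 1.40, 1.17 and 1.03 in APP-PS1_UA-WASHOUT, at 1.52, 1.48 and 1.67 in APP-PS1_WASHOUT, and at 1.45, 1.30, 1.61, 1.40 and 1.56 in WT_WASHOUT. All 5 treated washout arrays lay below all 3 APP-PS1_WASHOUT arrays. The change was -0.37 (95% interval -0.65 to -0.09, limma adjusted p = 0.461) and did not pass, and the second Sox9 probe gave -0.18.

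Aldh1l1, a folate enzyme used as an astrocyte marker, ran from 3.04 to 3.29 in APP-PS1_UA, from 2.99 to 3.10 in APP-PS1_CTR and from 3.01 to 3.42 in WT_CTR. After washout it ran from 3.06 to 3.59 in APP-PS1_UA-WASHOUT, from 3.24 to 3.49 in APP-PS1_WASHOUT and from 3.38 to 3.68 in WT_WASHOUT. No change of Aldh1l1 passed the test in the main fit. WT_WASHOUT minus WT_CTR, at 0.30 (limma adjusted p = 0.470), had the largest size among its 7 comparisons between groups there and lies across slides. Some alternatives called Aldh1l1 lower in APP-PS1_UA-WASHOUT than in WT_WASHOUT, also across slides. The change was -0.24 with slide as a random block (limma adjusted p = 0.0301) and -0.53 after median centring (adjusted p = 0.000568). It was -0.32 without APP-PS1_UA-WASHOUT replicate 3 (adjusted p = 0.0104).

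Aldoc, the brain form of the glycolytic enzyme aldolase, was called most firmly. Its brighter probe stood at 7.59, 7.89, 7.89, 7.61 and 7.67 in APP-PS1_UA-WASHOUT, at 7.65, 7.76 and 7.80 in APP-PS1_WASHOUT, and at 7.07, 6.93, 6.98, 6.99 and 6.86 in WT_WASHOUT. All 8 transgenic washout arrays lay above all 5 WT_WASHOUT arrays. At the end of treatment it stood at 6.97, 6.94, 7.19 and 6.94 in APP-PS1_UA, at 7.77, 6.85 and 6.93 in APP-PS1_CTR, and at 6.80, 6.80, 6.74 and 6.93 in WT_CTR, with 1 APP-PS1_CTR array far above the rest. APP-PS1_CTR minus WT_CTR was 0.37 (limma adjusted p = 0.726).

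The log2 change of this probe was 0.76 (1.70-fold) in APP-PS1_UA-WASHOUT against WT_WASHOUT, with limma adjusted p = 7.55e-05. It was 0.77 (1.71-fold) in APP-PS1_WASHOUT against WT_WASHOUT, with adjusted p = 0.000492. The second Aldoc probe, also printed in 10 spots on each array, gave 0.02 and 0.03. Quantile normalization brought the brighter probe to 0.24 (adjusted p = 0.0721) and 0.26 (adjusted p = 0.114). Its signal lay above the 99th percentile of probes on all 24 arrays, its slide means were 7.73 on slide 3, 6.97 on slide 1 and 6.99 on slide 2, and genotype and slide cannot be told apart here. Between APP-PS1_UA-WASHOUT and APP-PS1_WASHOUT, both on slide 3, the change was -0.01 (95% interval -0.31 to 0.30).

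Across the washout comparisons, APP-PS1_WASHOUT against WT_WASHOUT had 1 of 10 called, Aldoc by its brighter probe. Of all features 9702 (27.5%) were called there. APP-PS1_UA-WASHOUT against WT_WASHOUT had 3 of 10 called, Aldoc higher and Kcnj10 and Slc4a4 lower, while 12805 features (36.3%) were called, so the share among these genes is near that of all features. APP-PS1_UA-WASHOUT against APP-PS1_WASHOUT had 0 of 10 called, against 23 features (0.0652%). Of the 10 changes 9 were below 0 and 1 above, while 45.7% of all features were above 0. With the percentile over all spots 2 of the 10 were above 0. Most of the treated arrays lay in another array row than APP-PS1_WASHOUT. The median change of the 10 genes was -0.14 there, against -0.02 over all features, and 2 of the 10 had an unadjusted p under 0.05, as did 7.65% of all features.

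WT_WASHOUT against WT_CTR had 0 of 10 called, against 6 features (0.017%), and 3 with an unadjusted p under 0.05, as had 8.28% of all features. The transgene change after washout minus that at the end of treatment had 0 of 10 called, against 5029 features (14.3%). The urolithin A change after washout minus that at the end of treatment had 0 of 10 called by limma, against 3 features (0.00851%), with 3 of the 10 and 10.1% of all features at an unadjusted p under 0.05. The median of that difference was -0.25 over the 10 genes and -0.01 over all features. These differences share groups with the comparisons above.

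**Figure D3:**
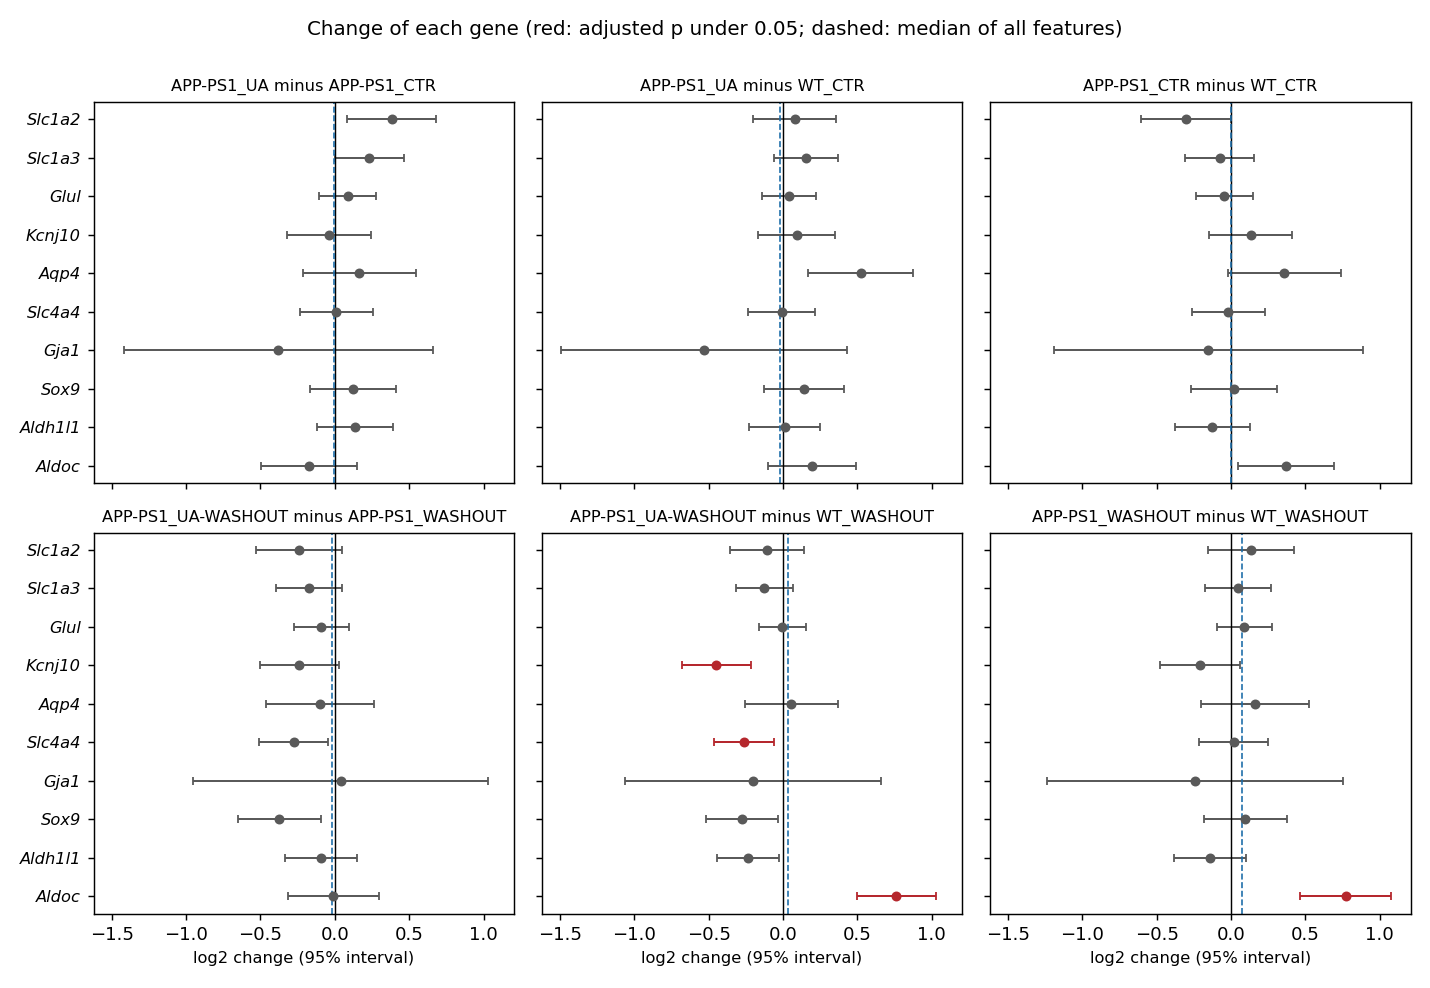
Log2 change of each gene with its 95% interval in 6 comparisons, with red for a limma adjusted p under 0.05 and a dashed line at the median of all features. At the end of treatment no gene is red. After washout Aldoc is red in both comparisons with WT_WASHOUT, at 0.76 and 0.77, and Kcnj10 and Slc4a4 in the treated one.

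Of 21 markers of reactive astrocytes measured, 5 were higher in APP-PS1_CTR than in WT_CTR, where 0.17% of all features were called. They were the complement gene C4b (1.14), Osmr, a receptor subunit for oncostatin M (0.88), Cd14 (0.92), Aspg (1.11) and Gfap (0.96). WT_CTR and APP-PS1_CTR lay in different array rows, and with array row as a block 8 of all features were called, against 60. Osmr (0.84) and C4b (0.94) were also higher in APP-PS1_UA than in WT_CTR. Gfap averaged 3.50 ± 0.10 in APP-PS1_UA (SD, n = 4), 3.94 ± 0.08 in APP-PS1_CTR (SD, n = 3) and 2.99 ± 0.15 in WT_CTR (SD, n = 4). In APP-PS1_UA against APP-PS1_CTR 0 of the 21 were called. With the percentile over spots, Gfap was at -0.46 in that comparison (limma adjusted p = 0.670). Most APP-PS1_UA arrays lay on another slide than APP-PS1_CTR. Gfap was called in APP-PS1_CTR against WT_CTR at limma adjusted p = 0.0471. With the percentile over spots its adjusted p was 0.053, and 3 of the 21 were then called.

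In the washout groups 7 of the 21 reactive markers were higher in APP-PS1_UA-WASHOUT and 5 in APP-PS1_WASHOUT, each against WT_WASHOUT, which is no larger a share than the 36.3% and 27.5% of all features called. C4b was at 1.25 and 1.27, Aspg at 1.07 and 0.91, and Gfap at 0.89 and 0.87 in these comparisons. Osmr was higher in APP-PS1_UA-WASHOUT (0.48), and Cd44 in APP-PS1_WASHOUT (1.32). Gfap averaged 3.59 ± 0.43, 3.57 ± 0.32 and 2.70 ± 0.19 in these 3 groups (SD). Of the 31 other identity genes, 0 were called in the 3 comparisons at the end of treatment. After washout 3 were higher and 4 lower in APP-PS1_UA-WASHOUT, and 3 were higher in APP-PS1_WASHOUT, each against WT_WASHOUT, a smaller share than that of all features. The higher ones were in both cases the urea transporter Slc14a1 (0.50 and 0.57) and the lipoprotein genes Apoe (0.35 and 0.36) and Clu (0.35 and 0.36). Among the lower ones was Id4 (-0.47), and Mfge8 was called in the transgene difference (0.61), as were Itgam of the microglial list (1.13) and Snap25 of the neuronal list (0.74).

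Of 12 microglial genes, 3 were higher in APP-PS1_UA and 3 in APP-PS1_CTR, each against WT_CTR, which lay in another array row than APP-PS1_CTR. These were Cst7 (5.74 and 5.92), Trem2 (1.01 and 1.09) and Tyrobp (0.88 and 1.11). After washout 11 were higher in APP-PS1_UA-WASHOUT and 10 in APP-PS1_WASHOUT, each against WT_WASHOUT. Cst7 (6.29 and 5.87), Tyrobp (1.22 and 1.03), Itgam (1.28 and 1.35) and Trem2 (1.26 and 1.20) had the smallest adjusted p among them. The median over the 12 choroid plexus genes of the log2 level minus each gene's mean over all arrays ran from -2.81 to 2.92 in APP-PS1_UA, from 0.42 to 2.09 in APP-PS1_CTR and from -2.18 to 2.31 in WT_CTR. Of the 12, 0 were called by limma in these 3 comparisons, with Ttr at -2.84 in APP-PS1_UA against APP-PS1_CTR and at 2.24 in APP-PS1_CTR against WT_CTR. Of 12 neuronal genes 2 were called in APP-PS1_UA-WASHOUT and 3 in APP-PS1_WASHOUT, each against WT_WASHOUT. Snap25, a synaptic vesicle fusion protein, was higher (0.71 and 0.75), Gad1, which makes GABA, was lower (-0.59 and -0.50), and Syt1 was higher in APP-PS1_WASHOUT (0.38). Of 12 oligodendrocyte genes 3 and 1 were called, the myelin gene Mag being higher in both (0.60 and 1.01), and Olig1 (-0.51) and Pdgfra (-0.43) lower in APP-PS1_UA-WASHOUT. Of 10 endothelial genes 1 and 2 were called, Flt1 being lower in both (-0.41 and -0.39) and Tek lower in APP-PS1_WASHOUT (-0.52). Of 8 subfield markers Nr3c2 was lower in APP-PS1_UA-WASHOUT (-0.61). All but the microglial counts are shares below those of all features, and these comparisons lie across slides. The part of these cell types in the values of the 10 genes was not tested.

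Correlations between the 10 genes were taken over the 8 arrays of each slide and averaged over the 3 slides, and they are descriptions only, since arrays of a slide share its scaling and hold different groups. Of 45 pairs 40 were above 0, 5 were above 0.5, and the median was 0.22. On slide 2 Slc1a3 and Sox9 were at -0.72, against 0.22 and 0.66 on slides 1 and 3. Slc1a2 and Slc4a4 were closest, at 0.83, with 0.77, 0.80 and 0.91 on slides 1 to 3 and Spearman's rho of 0.71, 0.90 and 0.95. Without the 2 arrays farthest from the median, r was 0.49, 0.76 and 0.84.

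Kcnj10 and Aqp4, which are both found in endfeet, followed at 0.71, with 0.57, 0.73 and 0.82 on slides 1 to 3. Spearman's rho was 0.12, 0.50 and 0.86. Without the 2 farthest arrays r was -0.10, 0.59 and 0.66, so on slide 1 the relation rests on those arrays. The features whose levels were most like the mean of the 10 genes were Bmpr1b, a receptor for bone morphogenetic proteins (0.89), Tmem41a (0.87), Nudt4 (0.86), Exoc3 (0.84) and Gabarapl2 (0.83), over 8 arrays on each slide. These were picked as the highest among the features with a symbol outside the 10 genes. The 10 genes, not picked on this value, ran from 0.33 for Slc1a3 (rank 3960) to 0.75 for Slc4a4 (rank 58). Gja1 itself correlated with the mean of the 10 genes, which includes it, at 0.29, 0.90 and 0.10 on slides 1 to 3. Its 2 low arrays are on slide 2, APP-PS1_UA replicate 4 and WT_WASHOUT replicate 5. On them the mean of the 10 centred genes was -0.21 and -0.20, and their median -0.06 and -0.04. How far these arrays set the list of most similar features was not tested.

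**Figure D4:**
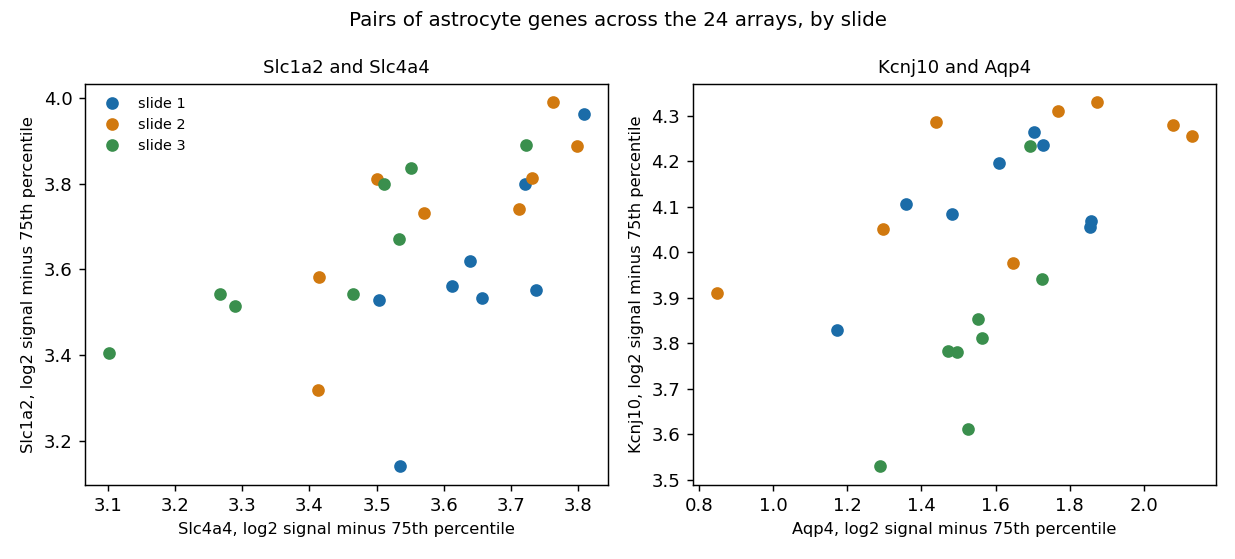
Slc1a2 against Slc4a4 and Kcnj10 against Aqp4 over the 24 arrays, both axes as log2 signal minus the array's 75th percentile, with 1 point per array coloured by slide. Slc1a2 rises with Slc4a4 within each slide (r of 0.77, 0.80 and 0.91).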

How the data were processed

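RNA from 24 hippocampi was hybridised to 1-colour arrays, and titles gave the groups. The authors' scanner files hold spot intensity values made with Agilent's Feature Extraction (version 12.0.3.1, per the file headers). The processed signal has background subtracted within an array and is not scaled across arrays. The authors' series matrix gives each spot a score, which lay within 0.005 of the array's standardized log signal. Its log base is unknown, and column medians ran from -0.17 to -0.06. Outlier spots were dropped here, log2 signals of a probe's spots were averaged, and the array's 75th percentile over probes was subtracted. That percentile was first taken over all spots. The version over probes was adopted after both sets of results had been seen, because an earlier account of these data used it. Among other changes, it adds a call for Slc4a4 and for Gfap. In APP-PS1_CTR against WT_CTR it gives 60 features rather than 55, and 5 of the 21 reactive markers rather than 3. Some calls are lost, with 3 rather than 4 of the 31 other identity genes higher in APP-PS1_UA-WASHOUT than in WT_WASHOUT.

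Probes well above background on at least 3 arrays, with at least 2 values in each group, were kept, and the brightest kept probe stood for a gene. Well above background were 63.7% to 76.9% of non-control spots, the 75th percentile of an array's spots lay between 1285 and 2292, and saturation affected 0 spots. Precision is set by how many arrays there are. Tests used limma 3.58.1 (R 4.3.3) with 6 group means, 7 contrasts and 2 differences of contrasts, Benjamini-Hochberg adjusted over 35259 features, 18566 of them with a symbol. The software for tables and plots was Python 3.11.15 (pandas 2.3.3, numpy 2.4.6; matplotlib 3.10.9). The fit was tested on simulated data. The genes and marker lists were chosen with earlier results of these data known, and subfield markers were added last. All 10 genes are named, and from each list up to 4 called genes with the smallest adjusted p in a comparison, plus Gfap and Ttr. Arrays with the same replicate number did not deviate together (r from -0.24 to 0.32), so numbers were not taken as pairs. Alternatives covered background correction, scaling, the filter on dim probes, probe choice, slide, array row, replicate number and leaving out each array.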

Additional observations from a re-analysis of the deposited data

Results flagged for a closer look

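Of 72 groups of 4 or 5 arrays, over the 18 probes, 5 held an array far from the others of its group, and chance flags about 1 in 20 groups. The brightest Gja1 probe was low in APP-PS1_UA replicate 4, at -1.10 against 1.09 to 1.13 for the other 3 arrays. It was also low in WT_WASHOUT replicate 5, at -1.44 against 0.47 to 1.11. Another Gja1 probe, A_55_P2800487, was high in APP-PS1_UA replicate 3, at -0.57 against -0.81 to -0.78. The brighter Aldoc probe was high in APP-PS1_UA replicate 3, at 7.19 against 6.94 to 6.97, and the other Aldoc probe was low in WT_CTR replicate 3, at 5.91 against 6.31 to 6.39.

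For Gja1 probe A_55_P2800487 the transgene change after washout exceeded that at the end of treatment by 0.62 (limma adjusted p = 0.0465 over all probes). The other 2 Gja1 probes gave -0.02 and -0.09, and the difference lies across slides, so it cannot be told apart from them.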

How the results depend on the processing

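In the 3 comparisons at the end of treatment, 0 of the 10 genes were called by limma under every alternative run. Over all alternatives and comparisons 3063 gene values kept direction and side of the threshold, 147 uncalled ones changed sign, 15 gained a call, 14 lost one and 1 reversed. For APP-PS1_UA-WASHOUT against WT_WASHOUT, with 3 genes called (1 higher, 2 lower), 1 was called after quantile normalization (lower), 8 after median centring (1 higher, 7 lower) and 5 with slide as a random block, and 2 to 5 when single arrays were left out (5 without APP-PS1_UA-WASHOUT replicate 3). For APP-PS1_WASHOUT against WT_WASHOUT, with 1 called, 0 were called after quantile normalization and 3 after median centring (1 higher, 2 lower). Median centring put the median of all features at -0.26 and -0.15 in these comparisons, against 0.03 and 0.07. Leaving out single arrays gave 0 to 1 genes in the transgene difference, with Aldoc at 0.70 (limma adjusted p = 0.00288) without APP-PS1_CTR replicate 1. Glul, at 0.00 in APP-PS1_UA-WASHOUT against WT_WASHOUT, was called higher at 0.104 on the deposited score scale (adjusted p = 0.00115) and lower at -0.30 after median centring (adjusted p = 0.00553).

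Taking the percentile over all spots, the version computed first, left 2 of the 3 genes called in APP-PS1_UA-WASHOUT against WT_WASHOUT and gave 55 features, against 60, in APP-PS1_CTR against WT_CTR. With the replicate block, 4 genes were called in APP-PS1_UA-WASHOUT against WT_WASHOUT, with Sox9 added (adjusted p = 0.0343). Over all features the count for APP-PS1_CTR against WT_CTR was 34 with the replicate block, 31 with no filter on dim probes, 28 within slide 1, 8 with array row as a block and 21 to 71 with an array left out. For APP-PS1_UA against APP-PS1_CTR it was 9 with slide as a fixed block, against 0. For APP-PS1_UA-WASHOUT against APP-PS1_WASHOUT it was 2862 with no filter, 307 with the deposited scores and 70 after quantile normalization, against 23. For APP-PS1_UA-WASHOUT against WT_WASHOUT it was 21734 with no filter and 19686 after median centring, 29.4% of them higher, against 12805 with 63.2% higher. For APP-PS1_WASHOUT against WT_WASHOUT it was 5965 with normexp and 6351 with probes well above background on all 24 arrays, against 9702. Normexp on gMeanSignal was not run, since the files used hold no such column; gMedianSignal replaced it, chosen after seeing the data. The causes were not tested.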
